A study of Mus musculus with 4 samples.

Results

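The genes described are 10 enzymes and regulators that break down the branched-chain amino acids leucine, isoleucine and valine. They are Bcat2, Bckdha, Bckdhb, Dbt, Bckdk, Ppm1k, Ivd, Mccc1, Mccc2 and Auh, 10 of the 22180 genes that could be named on the arrays. They were chosen by symbol, and the probe set with the highest mean over the 4 arrays was to stand for each gene. Each of the 10 had 1 probe set, so no choice between probe sets had to be made. The list was put together with differences between the groups already known, Mccc2 among them, so counts over the list describe it and support nothing beyond it, and each p-value below is the gene's place in a fit over all genes.

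The study measured RNA of the quadriceps, the large thigh muscle, on Affymetrix whole-transcript arrays, 1 array per mouse, to find how muscle carrying both NF90 and NF45 transgenes differs from normal muscle. There were 2 wild-type mice (WT) and 2 NF90-NF45 double transgenic mice (dbTg). NF90 and NF45 form a protein complex that binds double-stranded RNA. Replicate 1 was male and replicate 2 female in both groups. The other mice were 16 weeks old, but WT replicate 1 was 17 to 18 weeks. The sources used here name neither the strain of the mice nor the promoter of the transgenes. All values are log2 values from RMA, so a difference of 1 is a 2-fold change, and values of different probe sets are not set against each other as amounts. With so few arrays, precision is limited throughout.

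In muscle, branched-chain amino acids are taken apart in the mitochondria. The aminotransferase BCAT2 moves their nitrogen onto a keto acid partner, and the branched-chain keto acid dehydrogenase complex then removes carbon dioxide in a step that commits the carbon skeleton to breakdown. This complex is built from the decarboxylase subunits BCKDHA and BCKDHB, the acyltransferase core DBT and the dehydrogenase DLD, which it shares with the pyruvate and oxoglutarate dehydrogenase complexes. The kinase BCKDK phosphorylates BCKDHA and switches the complex off, and the phosphatase PPM1K switches it on again. The leucine branch goes on through isovaleryl-CoA dehydrogenase (IVD), methylcrotonyl-CoA carboxylase, made of the biotin-bearing MCCC1 and the carboxyltransferase MCCC2, and the hydratase AUH, and it ends in acetyl-CoA and a ketone body.

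Of the 10 genes, 9 had lower mean values in dbTg than in WT muscle, as did 39.5% of all tested genes, and Mccc2 and Bckdk fell past the threshold, calls that ended with the sex of the mice as a block. Mccc2 was 2.74-fold and Bckdk 1.88-fold higher in WT. The median log2 difference of the 10 genes, dbTg minus WT, was -0.48, beside 0.09 over all 13308 tested genes, those whose mean lay at or above the 40th percentile. All 10 genes passed this filter. In limma, with Benjamini-Hochberg adjustment over all tested genes and a threshold of 0.05, 2 of the 10 were called lower and 0 higher (unadjusted p under 0.05: 2 and 0). Of all tested genes 0.203% were called lower and 2.01% higher, while an unadjusted p under 0.05 held for 4.64% on the lower and 14% on the higher side. The groups did not overlap for 6 of the 10, each lower in dbTg, while 16.3% of all tested genes were lower and 33.7% higher without overlap. With 2 arrays against 2, an exact permutation test of a single gene can give no p below 0.33.

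**Figure D1:**
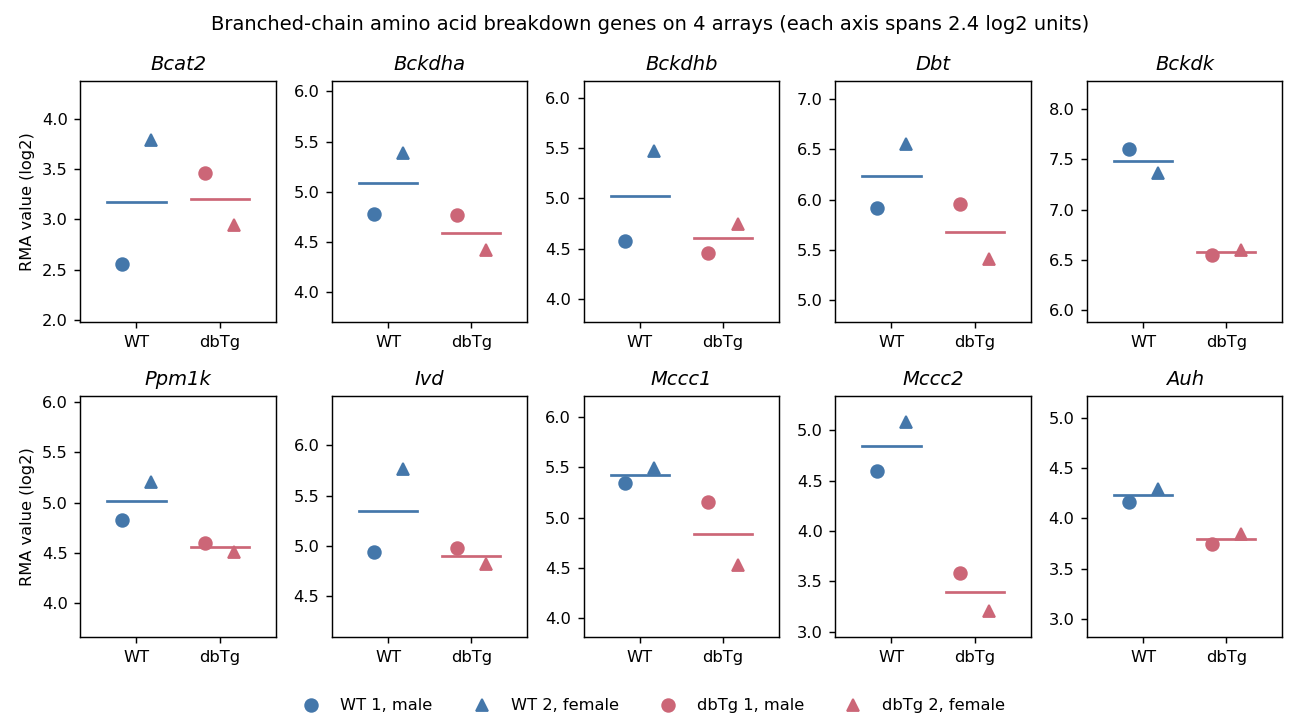
RMA value on the log2 scale (vertical axes, each spanning 2.4 units) of the 10 genes on the WT arrays (blue) and the dbTg arrays (red), with circles for the male, triangles for the female and lines for the group means. The groups of Mccc2 lie 1.02 apart and those of Bckdk 0.77, while those of Bcat2 overlap.

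Mccc2, whose protein carries out the carboxyl transfer of methylcrotonyl-CoA carboxylase, read 4.60 and 5.09 in WT and 3.58 and 3.20 in dbTg. Both dbTg arrays were below both WT arrays, and the nearest values of the groups were 1.02 apart. The log2 difference was -1.45 (SE 0.25, n = 2 in each group; limma adjusted p = 0.0437), from a mean of 4.84 ± 0.35 to 3.39 ± 0.27 (SD). Its partner gene Mccc1, which encodes the biotin-bearing subunit, read 5.35 and 5.50 in WT and 5.15 and 4.53 in dbTg. The groups of Mccc1 did not overlap either, but lay 0.19 apart. Its difference of -0.58 (SE 0.24) did not pass the threshold (limma adjusted p = 0.268).

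The carboxylase subunit genes were also set against each other within each array. On that scale, the Mccc2 value minus the Mccc1 value was -0.75 and -0.41 in WT and -1.58 and -1.33 in dbTg. This within-array difference was lower on both dbTg arrays, by 0.87 on average. Whether the changes of these genes differ was not tested, and Mccc2 was listed with its lower values known. Pccb, which encodes the matching subunit of propionyl-CoA carboxylase, a related biotin enzyme of isoleucine and valine breakdown, gave a like value. The Mccc2 value minus the Pccb value was -0.63 and -0.66 in WT and -1.43 and -1.61 in dbTg.

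Mccc2 lies on mouse chromosome 13 (99948532 to 100015639) and Mccc1 on chromosome 3 (35956292 to 36000694) in the RefSeq annotation of GRCm38.p6. The sequences upstream of their start sites are shown because the genes encode the partner subunits of one enzyme. They come from RefSeq's GRCm38.p6 table, read 5′ to 3′ on the gene's strand, and end before the annotated gene. Capitals mark CCAAT or its reverse complement ATTGG, and the palindrome CACGTG. The Mccc2 stretch is chr13:100015640-100015889 and the Mccc1 stretch chr3:36000695-36000928, both on the minus strand. The Mccc1 stretch overlaps the annotated span of Mccc1os, a long non-coding RNA gene.
Mccc2: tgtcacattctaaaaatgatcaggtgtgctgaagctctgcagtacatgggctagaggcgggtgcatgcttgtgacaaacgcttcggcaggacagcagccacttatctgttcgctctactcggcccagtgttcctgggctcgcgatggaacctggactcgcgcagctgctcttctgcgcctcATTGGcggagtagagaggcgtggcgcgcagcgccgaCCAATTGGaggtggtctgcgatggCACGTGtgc
Mccc1: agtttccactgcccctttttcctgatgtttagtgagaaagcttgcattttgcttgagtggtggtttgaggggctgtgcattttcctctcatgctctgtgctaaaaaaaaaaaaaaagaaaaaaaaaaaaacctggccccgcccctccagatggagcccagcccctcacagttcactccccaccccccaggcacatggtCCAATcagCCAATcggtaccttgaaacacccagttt

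In the 250 bases before the start, Mccc2 and Mccc1 each held 3 matches to CCAAT, counted on both strands. The pair in CCAATTGG of Mccc2 shares bases, and 1 match of Mccc1 lies in the bases inside the annotated gene that are not shown. Of the 32851 RefSeq windows of that length, 33.8% held at least 1 match and 2.79% at least 3. CACGTG was in the window of Mccc2 and of no other of the genes, and in 6.02% of all windows. Windows were found for 9 of the 10 genes (11 windows), and CCAAT was in those of 6 (Bckdhb, Bckdk, Ivd, Mccc1, Mccc2 and Ppm1k). GGGCGG, the GC box, was in those of 4 genes and in 32.7% of all windows. AAGGTCA, a half-site of nuclear receptors, was in none of the 9 and in 4.08% of all windows. A gene was counted if any of its windows held a match, while the shares are of single windows. The windows of Bcat2 and the later window of Bckdhb lie inside the annotated gene. These motifs were chosen with the expression values known, and a match describes the letters and no binding.

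Bckdk, the kinase that switches the dehydrogenase complex off, read 7.60 and 7.36 in WT and 6.55 and 6.59 in dbTg. The dbTg arrays lay close together, and both were under the WT arrays by at least 0.77. The log2 difference was -0.91 (SE 0.16, n = 2 in each group; limma adjusted p = 0.0435), from 7.48 ± 0.17 to 6.57 ± 0.03 (SD). It was the one gene of the 10 whose value was lower in WT replicate 2 than in WT replicate 1.

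The stretch before the start of Bckdk is shown as that of the other called gene. It is chr7:127903823-127904072 on the plus strand, and the gene runs from 127904073 to 127909664 on chromosome 7. It held 1 CCAAT, in capitals.
Bckdk: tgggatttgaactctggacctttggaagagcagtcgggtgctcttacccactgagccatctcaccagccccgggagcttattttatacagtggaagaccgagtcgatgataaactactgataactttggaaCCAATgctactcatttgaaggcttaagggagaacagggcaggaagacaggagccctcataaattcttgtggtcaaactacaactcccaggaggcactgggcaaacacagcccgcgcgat

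Ppm1k, the phosphatase that opposes the kinase, read 4.83 and 5.21 in WT and 4.60 and 4.51 in dbTg. Its groups did not overlap, and its difference was -0.46 (SE 0.21, limma adjusted p = 0.287). The Bckdk value minus the Ppm1k value within an array was 2.78 and 2.15 in WT and 1.96 and 2.08 in dbTg. This difference was thus lower on both dbTg arrays, by 0.45 on average, although the nearest values of the groups, 2.15 and 2.08, lay close together. Set against the mean of Bckdha, Bckdhb and Dbt, Bckdk gave 2.52 and 1.56 in WT and 1.49 and 1.74 in dbTg, and the groups overlapped.

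**Figure D2:**
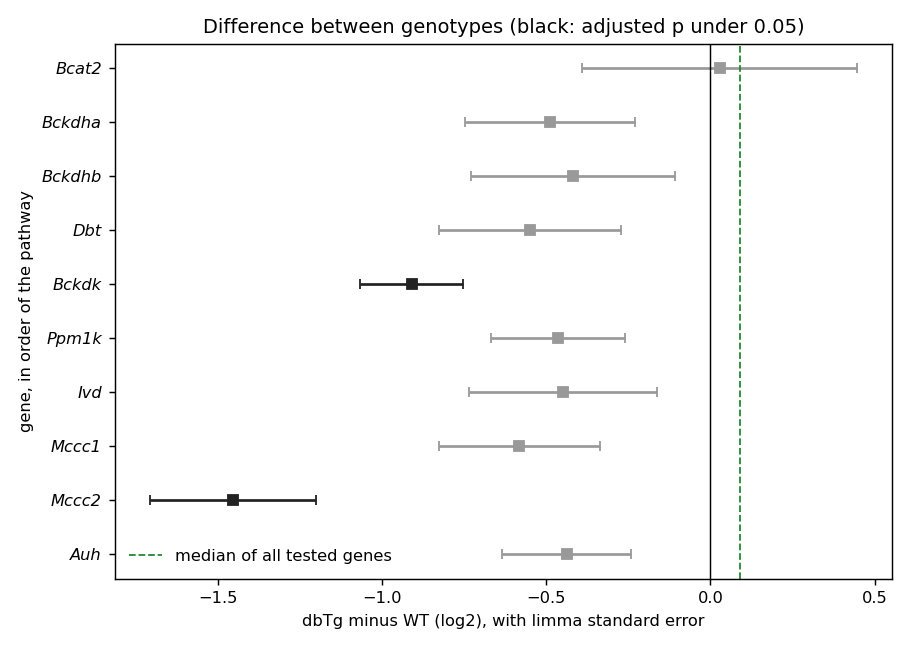
Difference of dbTg minus WT on the log2 scale (horizontal axis) for the 10 genes in pathway order (vertical axis), with limma standard errors. Mccc2 (-1.45) and Bckdk (-0.91), in black, passed the threshold; the dashed line is the median of all tested genes, 0.09.

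The catalytic subunits of the dehydrogenase complex differed by similar amounts, and none of them passed the threshold. Bckdha, the subunit that the kinase phosphorylates, read 4.78 and 5.39 in WT and 4.77 and 4.42 in dbTg. Its male arrays read nearly the same, so that the groups missed overlapping by 0.01. Bckdhb, the other decarboxylase subunit, read 4.57 and 5.47 in WT and 4.46 and 4.75 in dbTg. Dbt, the acyltransferase core, read 5.91 and 6.55 in WT and 5.95 and 5.41 in dbTg. The groups overlapped for both Bckdhb and Dbt, with WT replicate 1 between the dbTg values. The differences were -0.49 (SE 0.26), -0.42 (SE 0.31) and -0.55 (SE 0.28), with limma adjusted p of 0.368, 0.528 and 0.346. Without WT replicate 2 the difference of Bckdhb was 0.030. Dld, the dehydrogenase shared with other complexes, differed by 0.14 (SE 0.15, limma adjusted p = 0.686).

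In the related pyruvate dehydrogenase complex, Pdha1, Pdhb and Dlat hold the places of Bckdha, Bckdhb and Dbt. Their differences were -0.0044, 0.025 and -0.15. The mean of the branched-chain subunits minus the mean of the pyruvate subunits was -2.68 and -2.00 in WT and -2.51 and -3.06 in dbTg. These values overlapped, so the gap between the complexes did not separate the groups. Of 14 genes of the pyruvate and oxoglutarate complexes and their kinases and phosphatases, 0 were called in limma (unadjusted p under 0.05: 3 lower, 0 higher), with a median of -0.02. Pdpr, the regulatory subunit of pyruvate dehydrogenase phosphatase, differed by -0.84 (limma adjusted p = 0.0512). The kinase gene Pdk2 differed by -0.48 and its relative Pdk3 by 0.40 (limma adjusted p = 0.183 and 0.331). Pdk3 read low, at 1.66 and 1.48 in WT and 2.08 and 1.86 in dbTg, near the filter level of 1.48.

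The other genes of the leucine branch were lower by similar amounts without passing the threshold. Ivd, which oxidises isovaleryl-CoA, read 4.94 and 5.76 in WT and 4.98 and 4.82 in dbTg. Its groups overlapped, since WT replicate 1 read below dbTg replicate 1. Auh, the hydratase that follows the carboxylase and that also binds AU-rich RNA, read 4.16 and 4.29 in WT and 3.74 and 3.84 in dbTg. The groups of Auh stood 0.32 apart with little spread inside either, at SDs of 0.09 and 0.07. The differences were -0.45 for Ivd (SE 0.29, limma adjusted p = 0.459) and -0.44 for Auh (SE 0.20, limma adjusted p = 0.291).

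Bcat2, the mitochondrial aminotransferase of the opening step, was the exception to the lower means. It read 2.56 and 3.79 in WT and 3.46 and 2.94 in dbTg, so that the WT arrays enclosed the dbTg arrays. The difference was 0.03 (SE 0.42, limma adjusted p = 0.982), and leaving out WT replicate 1 gave -0.59 and leaving out WT replicate 2 gave 0.64. Its arrays ran, from low to high, WT replicate 1, dbTg replicate 2, dbTg replicate 1, WT replicate 2. This order held for 3.87% of tested genes and, among the listed pathway genes, for 6: Mcee, Hlcs, Klf15, Glul, Pdhx and Atp5b. Klf15, a glucocorticoid-inducible transcription factor known to control Bcat2, and Glul, the glutamine synthetase gene, were singled out of these after their values were seen. Klf15 read 2.77 and 4.93 in WT and 4.06 and 3.67 in dbTg. Glul read 7.33 and 9.41 in WT and 9.19 and 8.21 in dbTg. Their differences of 0.01 and 0.33 did not pass the threshold (limma adjusted p = 0.996 and 0.834). Bcat1, the cytosolic aminotransferase, lay under the filter at 1.29 to 1.59 on the 4 arrays and was not tested.

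The WT arrays stood apart for most of these genes. WT replicate 2, the female, read higher than WT replicate 1 for 9 of the 10, with a median excess of 0.55. Over all tested genes, 49.2% read higher on that array and the median excess was -0.01. The same order of the WT arrays held for 88.2% of the 17 other breakdown genes described below (median excess 0.49). It held for 93.3% of 15 respiratory chain genes (0.23) and 90.9% of 11 citric acid cycle genes (0.16). Of the 14 genes of the pyruvate and oxoglutarate complexes and their kinases and phosphatases, 57.1% showed it (0.06). In dbTg, replicate 2 read higher for 3 of the 10, with a median of -0.26. Sex, and in WT also age, differ between the replicates, and each group holds 1 mouse of each sex, so sex, age and the single animal cannot be told apart. Within the female pair the difference was negative for 10 of the 10 genes, with a median of -0.90, and within the male pair for 7 of the 10, with a median of -0.15. Over all tested genes these medians were 0.09 and 0.10, and over the 17 other breakdown genes -0.59 and -0.030. Mccc2, Bckdk and Auh were lower by at least 0.42 in each sex. Mccc2 differed by -1.02 in the male pair and by -1.89 in the female pair, Bckdk by -1.05 and -0.77, and Auh by -0.42 and -0.45. The male pair differences of Bckdha, Dbt and Ivd were -0.01, 0.04 and 0.05, against -0.97, -1.14 and -0.94 in the female pair. With 1 mouse of each sex in a group, the difference between the pairs could not be tested.

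**Figure D3:**
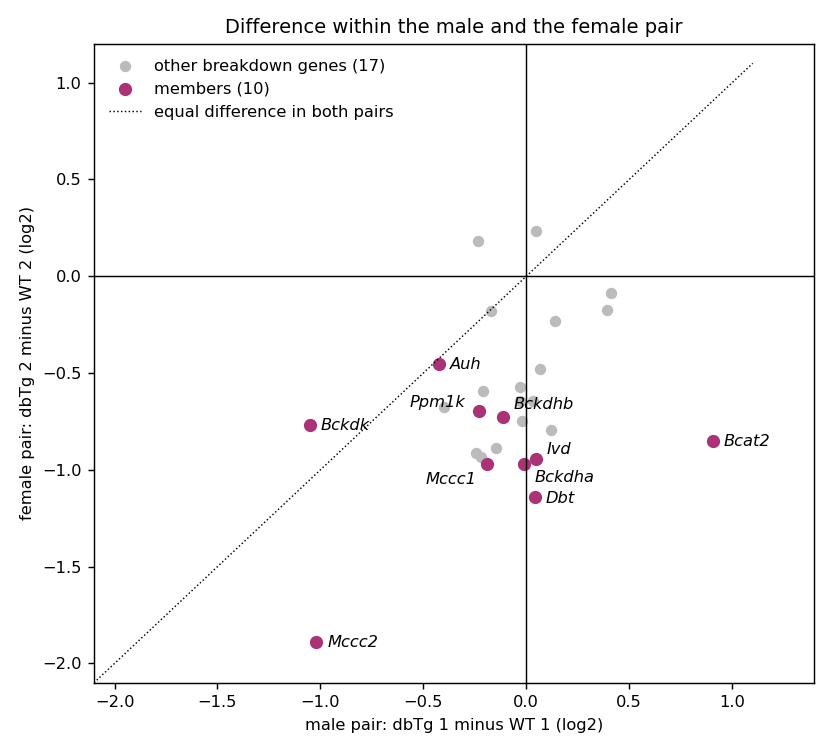
Difference of dbTg minus WT on the log2 scale for the male mice (horizontal axis) and for the female mice (vertical axis) for the 10 genes (purple, named) and 17 other breakdown genes (grey); the dotted line marks equal differences. Mccc2 and Bckdk are low in both pairs, and Bcat2 is at 0.91 for the males and -0.85 for the females.

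Most breakdown genes outside the list of 10 also had negative differences. These lists, too, were drawn up with earlier results known. Of 17 tested genes of the later leucine, valine, isoleucine and propionyl-CoA steps and shared enzymes, 14 had negative differences. In limma 0 were called, while an unadjusted p under 0.05 was found for 4 lower and 0 higher genes. These 17 genes had a median of -0.31, which moved to -0.53 once WT replicate 1 was left out and to -0.039 once WT replicate 2 was. The 4 were Acat1 (-0.52), a thiolase of isoleucine breakdown, Aldh6a1 (-0.58), the semialdehyde dehydrogenase of valine breakdown, and Pcca (-0.54) and Pccb (-0.58), the subunits of propionyl-CoA carboxylase. Adjusted p in limma was 0.184 to 0.238 for them. Oxct1, which activates ketone bodies, differed by -0.31, and Hibch, a hydrolase of valine breakdown, by 0.16. Mcee, the methylmalonyl-CoA epimerase gene, differed by -0.04 and Hlcs, which attaches biotin to carboxylases, by 0.11.

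Genes that handle the nitrogen of these amino acids split. Gpt2, the mitochondrial alanine aminotransferase, read 6.77 and 7.10 in WT and 5.79 and 5.59 in dbTg. The groups were clearly apart, and Gpt2 fell by 1.25 on the log2 scale (SE 0.18, limma adjusted p = 0.0280). Slc1a5, a glutamine carrier, was higher on both dbTg arrays (0.88, limma adjusted p = 0.0813), short of the threshold. Of the 7 nitrogen genes, 1 was called lower and 0 higher (unadjusted p under 0.05: 1 and 1), with a median of -0.02. Without dbTg replicate 1 the difference of Gpt2 was -1.34, and without dbTg replicate 2 it was -1.15. The call of Gpt2 ended in both of these fits and with the sex of the mice as a block (limma adjusted p = 0.0854).

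Transporters and regulators had 0 calls among 12 tested genes in limma, while an unadjusted p under 0.05 was found for 1 lower and 2 higher genes. Slc7a8 and Slc3a2 belong to the membrane carriers of large neutral amino acids. Slc7a8, a light chain, differed by -0.74 (limma adjusted p = 0.261), and Slc3a2, the heavy chain of these carriers, by 0.57 (limma adjusted p = 0.176). Slc25a44, the mitochondrial carrier of branched-chain amino acids, differed by -0.20 and was named for its role, outside the naming rule. Among regulators of mitochondrial genes, Ppargc1b differed by 0.66 and Ppara by -0.64 (limma adjusted p = 0.216 and 0.549). Without WT replicate 1, Acat1, Aldh6a1, Klf15, Pdpr, Ppara and Slc7a8 were called lower as well as Gpt2.

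**Figure D4:**
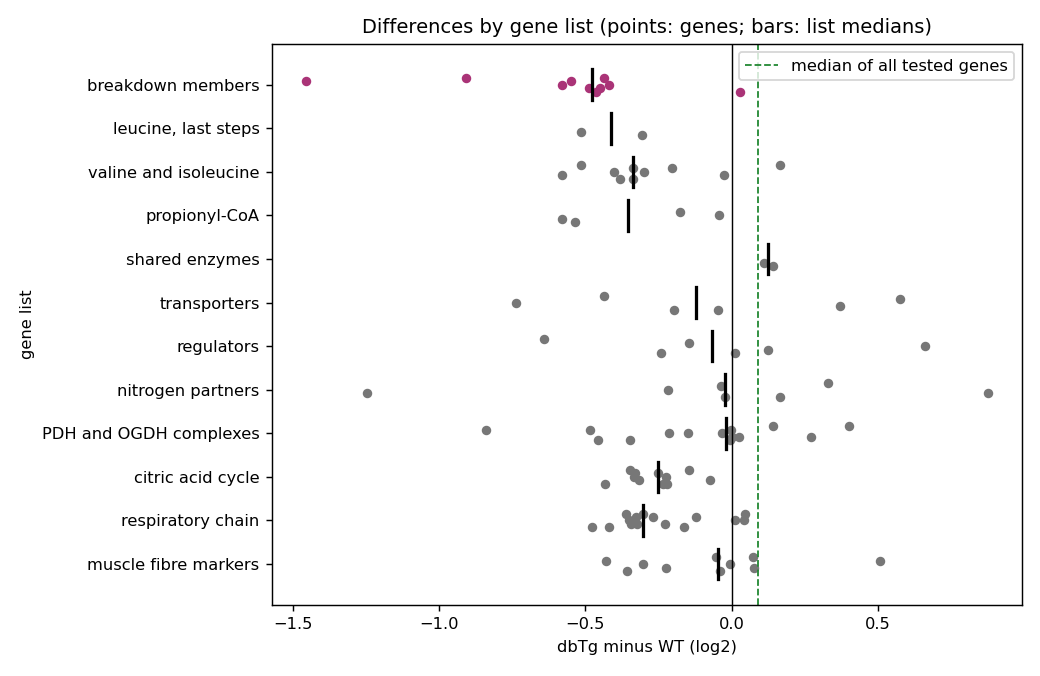
Difference of dbTg minus WT on the log2 scale (horizontal axis) of single genes (points) in each list (vertical axis), with list medians as bars and the median of all tested genes dashed. The members have a median of -0.48, respiratory chain genes -0.30 and muscle fibre markers -0.05.

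Other mitochondrial genes were also lower on average. Of 15 respiratory chain genes, 12 had negative differences (median -0.30), and of 11 citric acid cycle genes 11 did (median -0.25). None of either list was called in limma, with 2 lower and none higher in each at an unadjusted p under 0.05. Examples are Cox5b (-0.48) and Ndufs1 (-0.42) of the respiratory chain, with Atp5o of the ATP synthase at 0.04, and Suclg1 (-0.43), Ogdh (-0.35) and Sucla2 (-0.07) of the cycle. The mean of the 10 breakdown genes minus the mean of the respiratory chain genes was -1.72 and -1.40 in WT and -1.76 and -2.02 in dbTg. The groups did not overlap, but the nearest values, -1.72 and -1.76, lay close together. For Mccc2 alone this difference was -2.05 and -1.75 in WT and -2.91 and -3.32 in dbTg, and for Bckdk 0.95 and 0.52 against 0.07 and 0.07. Both differences were thus lower on both dbTg arrays. With each array scaled to its respiratory chain genes, Mccc2 differed by -1.21 between the groups (limma adjusted p = 0.0264). Bckdk differed by -0.67 on that scale and did not pass the threshold (limma adjusted p = 0.0853).

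The genes most like Mccc2 across the 4 arrays, by the Euclidean distance between values centred on each gene's mean, were Gpt2 (distance 0.27), Lpin1 (0.32), Odf3l2 (0.35), Hnmt (0.39) and Adhfe1 (0.40). Gpt2 is described above. Lpin1 encodes a phosphatidate phosphatase, Hnmt an enzyme that inactivates histamine and Adhfe1 a mitochondrial enzyme of the iron-containing alcohol dehydrogenase family. Lpin1 read 8.01 and 8.38 in WT and 7.22 and 6.87 in dbTg. These genes were chosen for their likeness, so their own differences add no test.

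The tissue and the transgene matched the labels. Ilf2, which encodes NF45, read 5.03 and 5.04 in WT and 10.36 and 10.16 in dbTg. The 10 muscle fibre markers read between 7.83 (Myh2) and 11.2 (Acta1), with a median difference of -0.05. In limma 0 of them were called (unadjusted p under 0.05: 1 lower, 1 higher). Myh2 varied widely inside both groups, at 7.83 and 9.90 in WT and 8.24 and 9.63 in dbTg. All 12 macrophage and leukocyte markers had positive differences and 7 were called higher, their mean level going from 2.42 to 2.65 in WT to 4.44 to 4.57 in dbTg. The WT values of the leukocyte markers Itgam and Laptm5 reached below the filter level of 1.48. Of 8 adipocyte markers 3 were called higher (mean level 4.11 to 4.39 in WT and 5.14 to 5.21 in dbTg). One of the 3 was Lep, whose WT values of 1.46 and 1.06 lay under that filter level. Differences were positive for 7 of the 8 adipocyte markers and negative for Lpl (-0.59). The 8 fibroblast markers had positive and the 8 endothelial markers negative differences, with 0 called in limma in either list (unadjusted p under 0.05: 4 fibroblast markers higher, 4 endothelial markers lower). The part of other cell types in the lower values of the breakdown genes was not tested, and in bulk muscle fewer cells of a type and less RNA per cell cannot be told apart. With each array scaled to its muscle fibre markers, the difference of Mccc2 was -1.38 (limma adjusted p = 0.0151). That of Bckdk was -0.83 (limma adjusted p = 0.0882) and the median of the 10 genes -0.40. The marker mean used for this scaling includes Myh2 and was 9.98 and 10.27 in WT and 10.03 and 10.07 in dbTg.

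The calls of Mccc2 and Bckdk depended on the dbTg arrays, on the block and on other settings of the test. Without dbTg replicate 1 the difference was -1.64 for Mccc2 and -0.89 for Bckdk, and without dbTg replicate 2 it was -1.26 and -0.93. Both calls ended in these fits, where the single dbTg array left is taken to vary as the WT arrays do. The lower calls of other genes ended there as well, so this loss was not particular to Mccc2 and Bckdk. With the replicate number, which is also the sex, as a block limma's adjusted p was 0.101 for Mccc2 and 0.0959 for Bckdk. Under the block 2 of all tested genes were called lower in limma, beside 27 in the main analysis, so the loss was not particular to Mccc2 and Bckdk. Of 15 alternatives tried, Mccc2 lost its call in 5 and Bckdk in 9, over ranges of adjusted p from 0.00977 to 0.364 and from 0.0174 to 0.330. Their differences stayed negative in all 15, between -1.70 and -1.21 for Mccc2 and between -1.03 and -0.67 for Bckdk.

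**Figure D5:**
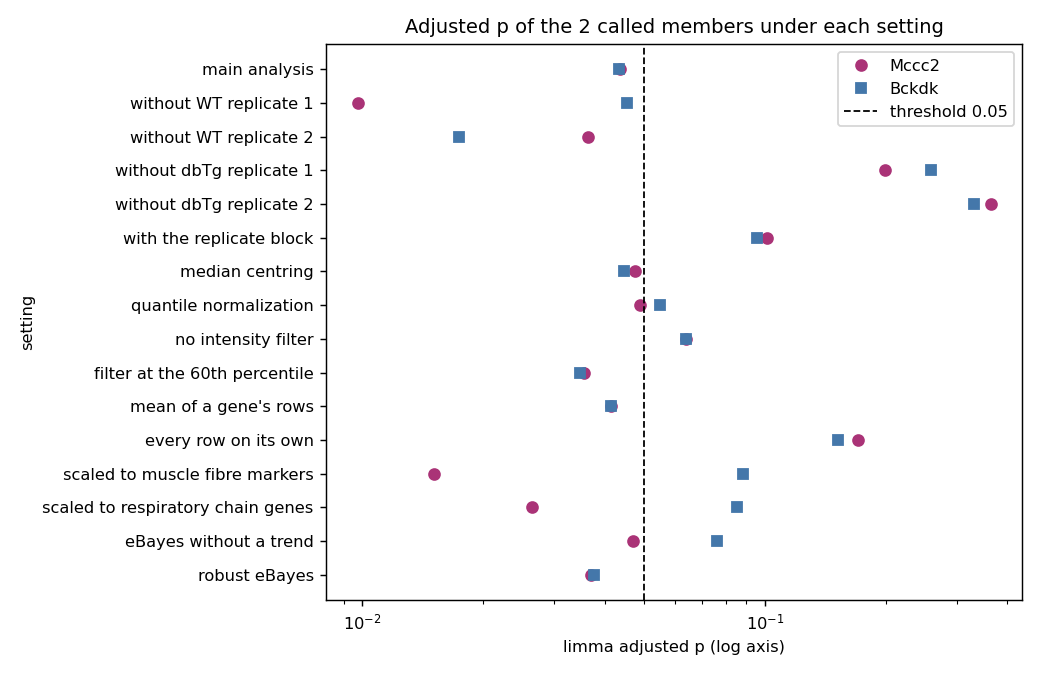
Adjusted p from limma (horizontal log axis) of Mccc2 (circles) and Bckdk (squares) under the main analysis and the 15 alternatives (vertical axis), with the threshold of 0.05 dashed. The highest values, up to 0.364, are those without 1 dbTg array.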

How the data were processed

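RNA of 4 quadriceps samples was measured on 4 arrays. The deposited log2 values were made by the authors with RMA in Expression Console of Affymetrix (per the labels' descriptions). RMA corrects background, normalizes by quantiles and summarises probe sets, which can compress differences of dim genes. Software version and annotation build: not given in the sources used here. Of 41345 probe sets, 23521 carried exactly 1 symbol, 1814 several and 16010 none in the platform annotation. Of these, 23328 matched RefSeq GRCm38.p6 by Entrez identifier, with 0 symbols changed. The brightest probe set stood for each of 22180 genes, and 13308 at or above the 40th percentile of the mean (1.48) were tested.

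The 2 groups were set against each other in limma 3.58.1 (R 4.3.3; lmFit and eBayes with an intensity trend, two-sided; 2 residual degrees of freedom and 4.76 prior). The members, gene lists, motifs and naming rule were chosen with earlier results of these data known. Named genes are the members, Ilf2, genes past the threshold, the 2 smallest p-values and both extremes of each pathway list. Extremes of the cell type markers and the 5 patterns nearest to Mccc2 among the genes kept for that ranking are also named. The alternatives left out single arrays, blocked on the replicate number or changed scaling, filter, collapsing of probe sets and eBayes settings. Scaling to muscle fibre markers and to respiratory chain genes was added after seeing the data. With 1 array per mouse, the p-values weigh a difference against the spread between the 2 mice of a group, which differ in sex. In eBayes this spread is moderated by that of the other genes.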

Additional observations from a re-analysis of the deposited data

Results flagged for a closer look

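For 3 of the 10 genes the male and the female pair of mice moved in opposite directions, as they did for 36.4% of all tested genes. With 1 mouse of each sex in a group these differences were not tested. Bcat2 differed by 0.91 in the male pair and by -0.85 in the female pair. Dbt differed by 0.04 in the male pair and by -1.14 in the female pair. Ivd differed by 0.05 in the male pair and by -0.94 in the female pair. The male differences of Dbt and Ivd are small beside 0.28 and 0.29, the limma standard errors of their differences between the groups. A pair of single arrays has no standard error of its own.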

How the results depend on the processing

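Over the 15 alternatives the median of the 10 genes stayed negative, from -0.79 to -0.24, and 8 to 10 of them had negative differences. The main analysis called 2 members lower. The count was 0 to 2 when 1 array was left out, 1 (Mccc2) after quantile normalization, without an eBayes trend and with scaling to muscle fibre markers or to respiratory chain genes, and 0 in limma without an intensity filter and with every probe set on its own (2 lower at an unadjusted p under 0.05 in both). With the replicate block 0 members were called in limma (2 lower at an unadjusted p under 0.05; adjusted p = 0.101 for Mccc2 and 0.0959 for Bckdk). The same block gave 63 genes higher and 2 lower among all tested, and 0 pathway genes lower (10 at an unadjusted p under 0.05). Deviations of the arrays numbered 1 from their group means correlated at 0.05 across 13308 genes, so the numbers were not taken as pairs.

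All genes called, 267 higher and 27 lower, became 4 to 610 higher and 0 to 156 lower when 1 array was left out, 120 and 7 after quantile normalization, 165 and 7 without a filter, and 5 and 0 with every probe set on its own (1087 lower at an unadjusted p under 0.05). Lower calls were 44 with the filter at the 60th percentile and 14 without a trend. Scaling to muscle fibre markers gave 495 higher, and scaling to respiratory chain genes, which moved the median of all tested genes from 0.09 to 0.33, gave 1028 and 14. Pathway genes called lower, 1 in the main analysis (Gpt2), numbered 0 to 7 when 1 array was left out, 2 (Gpt2 and Pdpr) with the 60th percentile, averaged probe sets or robust eBayes, and 0 with every probe set on its own (7 at an unadjusted p under 0.05). With scaling to respiratory chain genes 1 was called higher (Slc1a5). The median of the 17 other breakdown genes was -0.53 to -0.039 when 1 array was left out and -0.066 with that scaling. Bcat2 turned to -0.17 after quantile normalization and ranged from -0.59 (without WT replicate 1) to 0.64 (without WT replicate 2) when 1 array was left out, with -0.23 without dbTg replicate 1. Bckdhb ranged from -0.87 to 0.030, its value without WT replicate 2. The causes were not tested. No measure of signal over background accompanies the values, so how far dim probe sets limit these results is unknown.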
